A study of Mus musculus with 83 samples.

Results

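The regions described here were gene bodies that hosted no small RNA gene in the annotation used for counting. They were taken from the 32101 annotated features whose small RNA reads were quantified in mouse embryonic stem cells (ESCs) after acute loss of the maintenance DNA methyltransferase Dnmt1. A row was kept when it was at least 1000 bp long, lay outside the mitochondrial genome, chromosome Y and the interval from 110.5 to 111.2 Mb of chromosome 12, and overlapped no row of 350 bp or less on either strand. It also had to reach at least 10 RPM (reads per 1000000 reads of the library counted in features) in at least 3 of 36 small RNA libraries of days 1 to 25. Of the 24056 long rows outside those intervals, 22114 overlapped no short row, and 1386 of these reached the level. The level rule read the same libraries that the time course compares, so the members were chosen by measured values, their RPM in the 36 libraries of the time course, and these levels are given as a description.

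The cells were E14 ESCs with both Dnmt1 alleles flanked by loxP sites, in which tamoxifen switched on Cre recombinase, and the controls are labelled control. The study kept its ESCs in medium with serum and LIF, with or without feeder cells. Total small RNA was sequenced on days 1, 3, 6, 9, 11 and 25 in 3 libraries per genotype and day. Small RNAs bound to the endonuclease ARGONAUTE2 (AGO2) were sequenced in 4 pull-downs per genotype, which the text of the study dates to day 9 after deletion and the labels do not date. A single library per genotype is labelled none. The methods describe a control of beads without serum, and the labels do not say whether these libraries are it. Another 4 libraries came from primordial germ cells (PGCs) of both sexes at E13.5 and E14.5. The study took its PGCs from C57BL/6J matings in which the females carried an Oct4-GFP transgene. No label says that replicates came from separate cultures, so p-values measure only the spread between these libraries.

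Endogenous small interfering RNAs (endo-siRNAs) are cut by DICER from long double-stranded RNA, such as paired sense and antisense transcripts, and are loaded into AGO2, which can slice matching transcripts. They are well known from mouse oocytes, where pseudogene and antisense transcripts pair with mRNAs. A protein-coding gene body usually yields only scattered fragments of its own transcript, unless it hosts a small RNA gene, and a short intron can itself fold into a miRNA hairpin once it is spliced (a mirtron). An endo-siRNA source in these data would thus show reads that are higher in Dnmt1 KO and are also present in the AGO2 pull-down, and both readouts were examined for every gene body.

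The sequences printed here are the miRNA hairpins and mature miRNAs that the counting annotation did not hold but that a later RefSeq table (GRCm38.p6) places in these gene bodies. They are shown because their hosts were among the gene bodies with the most AGO2-bound reads. A full hairpin was found in NCBIM37, the build of the files, inside 58 of the 1386 gene bodies, with 59 miRNA genes and 106 mature sequences. Of the 60 pairs of host and hairpin, 52 lay on the host's strand, 59 lay within an intron to within 10 bases, and 34 ended exactly with the last base of an intron on the host's strand. In 3 hosts the hairpin was the whole intron, starting with GU and ending with AG. Mature arms are in capitals.
Mir6944 in Dbn1, chr13:55579042-55579137, minus strand, 96 bases: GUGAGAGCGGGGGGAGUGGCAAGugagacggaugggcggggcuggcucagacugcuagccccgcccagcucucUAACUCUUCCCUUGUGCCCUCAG
Mir7068 in Cherp, chr8:74993915-74993988, minus strand, 74 bases: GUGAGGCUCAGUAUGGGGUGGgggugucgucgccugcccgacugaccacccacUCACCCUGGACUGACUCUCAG
Mir7018 in Hspg2, chr4:137094201-137094285, plus strand, 85 bases: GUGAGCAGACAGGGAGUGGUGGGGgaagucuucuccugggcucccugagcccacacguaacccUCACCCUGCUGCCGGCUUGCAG

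The mature sequences follow with the seed, bases 2 to 8 counted from the 5′ end, in capitals. The 3p arms in Cherp and Hspg2 shared the seed CACCCUG, and the 5p arms of all 3 hairpins began with the GU of the intron's first bases.
mmu-miR-6944-3p in Dbn1: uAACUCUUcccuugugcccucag
mmu-miR-6944-5p in Dbn1: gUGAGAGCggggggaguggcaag
mmu-miR-7068-3p in Cherp: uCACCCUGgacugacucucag
mmu-miR-7068-5p in Cherp: gUGAGGCUcaguauggggugg
mmu-miR-7018-3p in Hspg2: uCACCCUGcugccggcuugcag
mmu-miR-7018-5p in Hspg2: gUGAGCAGacagggaguggugggg
mmu-miR-8114 in 5830403L16Rik, opposite strand: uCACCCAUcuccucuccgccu
mmu-miR-7687-5p in Gse1: aGGCGGGGaaccugaggcgcaggcu
mmu-miR-7029-5p in Gcn1l1: uCUGGACGcucggcugccagcgc
mmu-miR-6540-3p in Gap43: uCUGAAGCuugcuuaccucca
Mir7687 lay inside a Gse1 intron of 16021 bases and Mir6540 inside a Gap43 intron of 48106 bases. Mir7029 ran 7 bases into coding sequence of Gcn1l1. Mir8114 overlapped a non-coding part of an exon of 5830403L16Rik on the opposite strand, where the row of Glul (glutamine synthetase) shares the reads.

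The libraries of days 1 to 11 held 870481 to 6239009 reads and those of day 25 held 521066 to 815523. The AGO2 pull-downs differed more, from 11497718 to 25423038 reads in control and from 1152390 to 11520133 in Dnmt1 KO, so that 1 read was worth 0.868 RPM in the shallowest Dnmt1 KO pull-down. As a check of the cells, the 12 rows of ESC miRNAs (the miR-290 and miR-302 clusters) summed to 110780 to 209785 RPM in the time course. Rows of muscle and liver miRNAs stayed under 1 RPM and 3 neural rows under 12 RPM, while 3 blood rows summed to 437 to 3226 RPM. On day 9 the blood rows summed to 727 to 837 RPM in control and 1839 to 2129 RPM in Dnmt1 KO. Dnmt1 KO was above control in them without overlap on days 6, 9 and 11 and below it on days 1 and 25. The Dnmt1 body itself, whose row counts small RNA fragments and not the mRNA, was called on no day (mean over days -0.10 ± 0.08 log2, adjusted p = 0.37 by limma). These are bulk libraries, and fewer cells of a type cannot be told apart from less RNA per cell.

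Gene bodies without a hosted small RNA were long and thinly covered. Their median length was 46.2 kb, from 1.004 to 1139 kb, against 13.2 kb for the other long rows without a short row, and exons made up a median of 11.8% of the span. The set held 1342 protein-coding genes, 29 lincRNAs and 15 processed transcripts. A row counts reads over its whole span, introns included, and 471 of the 1386 overlapped another row, so their reads can be shared. Whether the counting used strand is not given in the sources used here.

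The typical level was close to the threshold itself. The median over gene bodies of the median RPM was 9.23, only 37 had a median of 100 RPM or more and 6 of 1000 RPM or more. A total of 184 passed 10 RPM in all 36 libraries and 129 passed in exactly 3. Those 129 had a median of median RPM of 5.42, against 5.12 for the 267 rows that passed in exactly 2 libraries and stayed outside. Through controls alone 180 passed, through Dnmt1 KO alone 111, and 274 passed only because of the day 25 libraries. The counts called by day, over the mean of days and between AGO2 genotypes are therefore also given for the 958 gene bodies at the level in both genotypes.

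A few gene bodies had far higher levels than the rest. Itga9 (integrin alpha 9, chr9:118515808-118810121) had the highest median, 5860 RPM, and ranged from 2270.0 to 10106 RPM. Rab27a (a small GTPase of vesicle transport, chr9:72892672-72945399) had 2753 RPM.

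Part of these high levels came from places where reads cannot be assigned to 1 gene. The rows 2610528E23Rik (1636 RPM) and Filip1l (1634 RPM) overlap on opposite strands and share nearly all of their reads. The processed transcript 4930557F10Rik (1676 RPM) spans tRNA genes in RefSeq. Small RNA genes of a RefSeq annotation later than the counting annotation lay in 93 of the 1386, namely tRNA genes in 20, miRNA genes in 69 and snoRNA genes in 4. The hairpin match added 6 hosts to these, so 99 held a later small RNA gene by either measure and 1287 by neither. The 32 gene bodies without a RefSeq match were checked by hairpin alone.

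To ask whether small RNAs from these gene bodies rose after demethylation, each day's Dnmt1 KO libraries were compared with that day's controls. Differences are on the log2(RPM + 1) scale, which understates the change of low rows, and calls are at a Benjamini-Hochberg adjusted p of 0.05 from limma over all 2582 features that reached the level. On day 1, 23 gene bodies were called, 17 higher and 6 lower in Dnmt1 KO, against a background of 3.80% of all features called, 2.87% higher and 0.930% lower. On day 3, 28 were called, 15 higher and 13 lower (background 6.24%, 4.49% higher and 1.74% lower). Both days were thus below the background in share. Of the 958 gene bodies at the level in both genotypes, 14 were higher and 6 lower on day 1. On day 3, 13 of them were higher and 11 lower.

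Days 6 and 9 had a clear direction. On day 6, 183 gene bodies were called, 167 higher and 16 lower, where 23.0% of all features were called, 13.7% higher and 9.33% lower. On day 9, 116 were called, 103 higher and 13 lower (background 18.4%, 12.3% higher and 6.12% lower). The median log2 difference over all 1386 was 0.24 on day 6 and 0.15 on day 9, against 0.14 and 0.09 over all features tested. Among the 958 gene bodies at the level in both genotypes, 142 were higher and 13 lower on day 6, and 90 higher and 13 lower on day 9.

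On days 11 and 25 the split was less one-sided. On day 11, 40 gene bodies were called, 24 higher and 16 lower (background 8.64%, 6.27% higher and 2.36% lower). On day 25, 354 were called, and now more were lower (197) than higher (157), with a background of 35.0%, 18% higher and 17.0% lower. The day 25 libraries were the shallowest, and the controls of that day differed most from each other in single members such as Klhl13 and Gm17561. Over the mean of the 6 days, 211 gene bodies were called, 158 higher and 53 lower (background 26.7%, 16.6% higher and 10.1% lower). The effect of day 11 minus that of day 1 was called for 43 gene bodies, 24 larger and 19 smaller on day 11. The background was 9.02%, 6.04% larger and 2.98% smaller. Of the 958 gene bodies at the level in both genotypes, 22 were higher and 15 lower on day 11. On day 25, 113 of them were higher and 142 lower, and over the mean of days 114 were higher and 36 lower. The day 11 minus day 1 effect was larger for 21 of the 958 and smaller for 17.

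**Figure D1:**
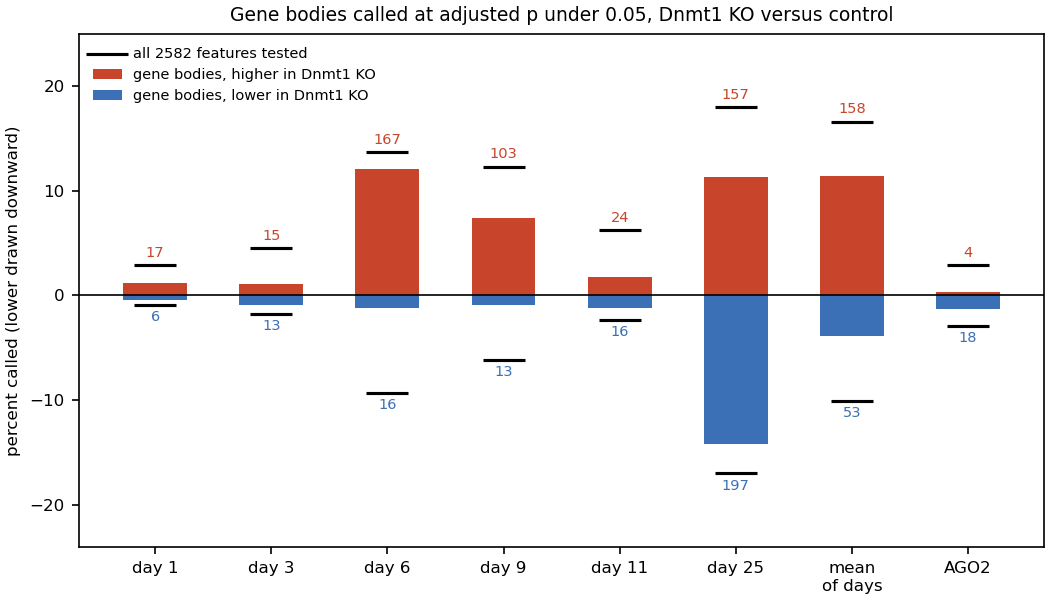
Percent of the 1386 gene bodies called at an adjusted p under 0.05 (vertical axis, lower in Dnmt1 KO drawn downward) for each day, the mean of days and the AGO2 pull-down. Black lines give the share of all 2582 features tested in the same direction and numbers give gene bodies called. The bars stay below the black lines in every comparison, and the tallest bar upward is that of day 6 (167 gene bodies).

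In the plot of calls by day, the share of gene bodies called stayed below the share of all features in both directions. The split of higher to lower depended on the scaling of the libraries. It was 25 to 2 on day 1 with library totals, 21 to 7 on day 3 and 127 to 31 on day 6 with median-ratio factors, 65 to 23 on day 9 with library totals, 19 to 23 on day 11 with library totals and 32 to 14 with median-ratio factors, and 131 to 273 on day 25 with library totals. On days 6 and 9 more were higher than lower under every scaling tried.

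Of the 1386, 525 were called on at least 1 day, and 372 of these on exactly 1 day. Higher calls came on 2 days for 75, on 3 days for 13, on 4 days for 8 and on 5 days for 3 gene bodies, namely Npffr1, Ahnak and Ptprg, and on all 6 days for none. Another 64 were called higher on 1 day and lower on another. Naaa, Elovl6 and Prosapip1, whose values follow, were among these. The counts by number of days were not made over all features tested, a larger share of which was called on every day.

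Markers of feeder-like cells moved with genotype on several days. The sum of 8 fibroblast miRNA rows was 18386 to 20373 RPM in control and 29690 to 32659 RPM in Dnmt1 KO on day 6, 29077 to 38292 against 53995 to 61140 RPM on day 9, and 10613 to 11743 against 7563 to 8762 RPM on day 25. On day 3 the sum was 29741 to 30198 RPM in control and 44171 to 54763 RPM in Dnmt1 KO. On day 11 it was 24256 to 26977 and 29319 to 33840 RPM. The groups did not overlap on any of these days. Dnmt1 KO was above control on days 3, 6, 9 and 11 and below it on day 25. On day 1 the groups overlapped. Of 25 fibroblast genes listed, 3 were gene bodies of this set (Fn1, Sparc and Thbs1, all matrix proteins). Their summed level was higher in Dnmt1 KO with no overlap on day 3 (64.1 to 68.9 RPM in control and 78.5 to 94.4 RPM in Dnmt1 KO), day 6 (50.4 to 52.0 and 54.7 to 80.9 RPM) and day 25 (19.7 to 24.9 and 34.1 to 41.0 RPM). On day 9 the groups overlapped, at 47.6 to 55.4 RPM in control and 47.1 to 64.5 RPM in Dnmt1 KO, as they did on days 1 and 11. On the mean of days Sparc rose by 0.51 ± 0.12 (adjusted p = 0.0013), while Fn1, the most abundant, differed by 0.05 ± 0.07 (adjusted p = 0.60). Thbs1 differed by 0.68 ± 0.14, a description, since it reached 10 RPM in Dnmt1 KO libraries alone. The part of such cells in the results was not tested.

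The 6 gene bodies with the largest difference upward over the mean of days were Klhl13, Gm17561, Ahnak, Npffr1, Rnf19b and Naaa. Ahnak encodes a very large scaffold protein of the cell cortex (chr19:9063750-9151409). On day 1 it had 5.81, 7.53 and 4.595 RPM in control and 6.32, 5.90 and 6.11 RPM in Dnmt1 KO, and the groups overlapped. On day 9 it had 7.25, 6.88 and 9.63 RPM in control and 16.5, 18.1 and 18.8 RPM in Dnmt1 KO. On day 25 it had 21.5, 19.19 and 12.3 RPM in control and 75.6, 62.8 and 60.6 RPM in Dnmt1 KO. From day 3 on, every Dnmt1 KO library lay above every control. Ahnak rose by 1.199 ± 0.213 log2 on day 9, with an adjusted p of 3.1e-05. By day 25 the rise had reached 1.98 ± 0.21 (adjusted p = 5.9e-10), and the mean of days gave 1.12 ± 0.09 (adjusted p = 5.1e-14).

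Klhl13, a cullin adaptor on the X chromosome (chrX:22796397-22942208), had 3.23, 1.91 and 2.88 RPM in control and 16.2, 14.7 and 13.2 RPM in Dnmt1 KO on day 11. The groups lay far apart, at a low level. Its difference was 2.18 ± 0.33 log2 there and 1.297 ± 0.136 over the mean of days, the largest of the set, and it was -0.46 ± 0.33 on day 1. No control library of Klhl13 or of Gm17561 reached 10 RPM, so both entered the set through Dnmt1 KO libraries and their differences on the time course are a description, with no test.

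Gm17561 is a lincRNA of 9.141 kb within the row of Wiz, with which it shares reads (chr17:32506250-32515390). It had 1.62, 1.43 and 2.47 RPM in control and 12.4, 12.9 and 15.5 RPM in Dnmt1 KO on day 11. On day 25 it had 3.59, 5.76 and 0 RPM in control and 24.1, 38.4 and 34.1 RPM in Dnmt1 KO. Dnmt1 KO was above control in every library of both days. The difference in Gm17561 was 2.45 ± 0.45 log2 at the earlier time and 3.42 ± 0.45 on day 25.

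Naaa and Rnf19b had their largest difference on day 6. Naaa, a lysosomal amidase, had 2.14, 1.65 and 3.40 RPM in control and 18.998, 28.5 and 21.1 RPM in Dnmt1 KO on day 6, a rise of 2.75 ± 0.30 log2 (adjusted p = 9.4e-10). On day 25 it had 41.2, 42.2 and 62.5 RPM in control and 33.8, 19.21 and 22.7 RPM in Dnmt1 KO, so that the order of the groups was reversed, and Naaa fell by 0.82 ± 0.30 (adjusted p = 0.028). Rnf19b, a ubiquitin ligase, had 3.97, 2.89 and 2.83 RPM in control and 18.998, 15.8 and 20.8 RPM in Dnmt1 KO on day 6, a difference of 2.13 ± 0.30. Rnf19b also reached 10 RPM in at least 3 libraries in Dnmt1 KO alone. Npffr1, a neuropeptide receptor, had 10.9, 9.88 and 6.90 RPM in control and 25.5, 20.4 and 24.4 RPM in Dnmt1 KO on day 9, a rise of 1.39 ± 0.24 (adjusted p = 2.8e-05). Its difference lay between 1.02 and 1.40 on all days from day 3. The groups of Npffr1 did not overlap on any of those days. The groups of Rnf19b did not overlap on days 6, 9 and 25 and overlapped on days 3 and 11.

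Rab27a was the most abundant gene body that changed on most days. It had 2905, 3156 and 3372 RPM in control and 2079, 2256 and 2756 RPM in Dnmt1 KO on day 1. On day 6 it had 2433, 2789 and 2647 RPM in control and 6911, 6626 and 6279.5 RPM in Dnmt1 KO. On day 25 it had 4980.4, 5084 and 5397 RPM in control and 4876, 5373 and 4798 RPM in Dnmt1 KO. The groups were apart in opposite order on days 1 and 6 and overlapped on day 25. Rab27a fell by 0.51 ± 0.11 log2 on day 1 (adjusted p = 0.0053), rose by 0.50 on day 3, 1.23 on day 6, 1.13 on day 9 and 0.63 on day 11, and differed by 0.07 ± 0.11 on day 25 (adjusted p = 0.66). Itga9 was not called on the mean of days (-0.05 ± 0.06, adjusted p = 0.65).

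**Figure D2:**
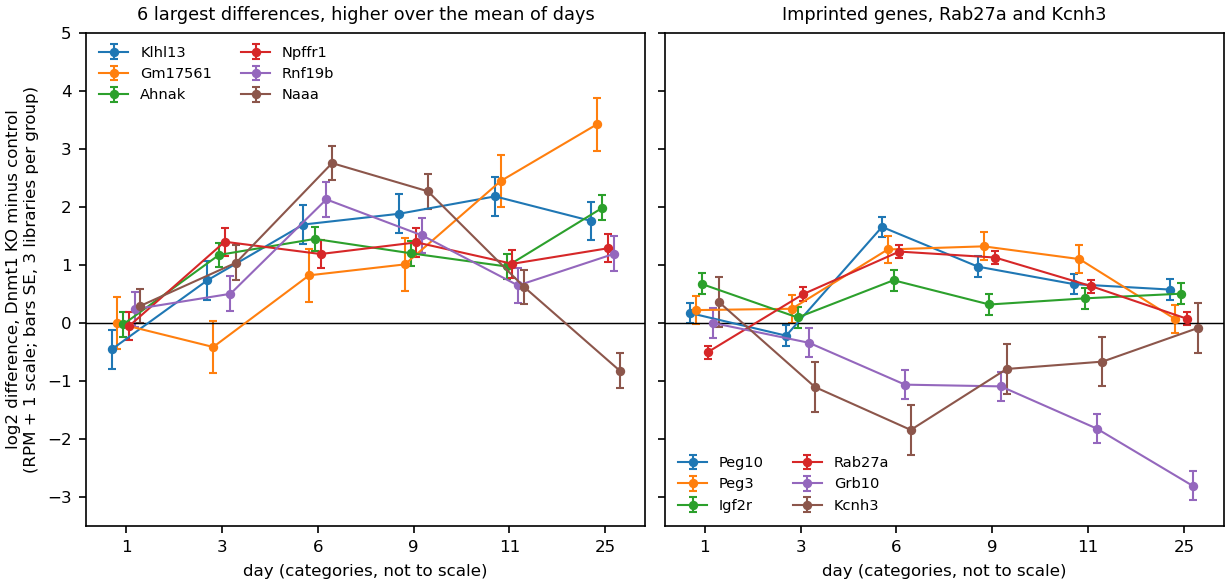
Log2 difference, Dnmt1 KO minus control (vertical axis, RPM + 1 scale), by day (horizontal axis, days as categories); points are limma estimates and bars are standard errors with 3 libraries per group. The left panel holds the 6 gene bodies with the largest difference upward over the mean of days, none of them called on day 1. The right panel holds imprinted genes, Rab27a and Kcnh3, with Grb10 falling to -2.81 on day 25.

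The plot of differences by day also shows imprinted genes, which are expressed from 1 parental allele and whose control regions depend on DNA methylation. Of 40 imprinted genes listed outside the Dlk1-Dio3 locus, 8 were gene bodies of this set, and over the mean of days Peg10, Peg3, Igf2r and Kcnq1 rose and Grb10 fell, where 26.7% of all features were called. The other 3 (Gnas, Slc38a4 and Ddc) were not called on the mean. These members were in view when the list was used, so their count is a description.

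Peg10, a paternally expressed gene derived from a retrotransposon (chr6:4697306-4710514), had 16.8, 12.4 and 13.03 RPM in control and 53.0, 49.9 and 45.4 RPM in Dnmt1 KO on day 6. On day 9 it had 20.1, 16.1 and 22.0 RPM in control and 39.1, 35.4 and 32.4 RPM in Dnmt1 KO. The groups were apart from day 6 to day 25. Peg10 rose by 1.65 ± 0.18 log2 on day 6 (adjusted p = 6.6e-10), 0.97 on day 9, 0.67 on day 11 and 0.57 on day 25.

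Peg3, a paternally expressed zinc finger gene, had 7.74, 9.35 and 7.45 RPM in control and 23.3, 14.1 and 24.5 RPM in Dnmt1 KO on day 9, and the groups did not overlap. The rise in Peg3 was 1.32 ± 0.24 on day 9 (adjusted p = 4.4e-05), and on day 25 its difference was 0.06 ± 0.24 (adjusted p = 0.86). Igf2r, the maternally expressed receptor of insulin-like growth factor 2, shares its locus with the antisense transcript Airn, and their reads cannot be told apart here. On day 6 Igf2r had 51.3, 67.3 and 69.1 RPM in control and 96.3, 118 and 123 RPM in Dnmt1 KO, a rise of 0.73 ± 0.18 (adjusted p = 0.0022). Kcnq1, a potassium channel in an imprinted domain, rose by 0.36 ± 0.08 over the mean of days (adjusted p = 0.00054).

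Grb10, an adaptor of insulin signalling, moved the other way and more with each day compared. It had 12.1, 13.3 and 10.3 RPM in control and 12.6, 12.9 and 12.2 RPM in Dnmt1 KO on day 1, with overlapping groups. On day 25 it had 23.3, 17.3 and 15.9 RPM in control and 1.61, 1.28 and 1.90 RPM in Dnmt1 KO, with every control far above every Dnmt1 KO library. The difference in Grb10 was -1.10 ± 0.25 log2 on day 9, with an adjusted p of 0.0011. It was -1.82 ± 0.25 by day 11 (adjusted p = 3.3e-07) and -2.81 ± 0.25 by day 25 (adjusted p = 3.9e-12). On day 1 its difference was -0.00 ± 0.25 (adjusted p = 1).

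Of the 53 gene bodies called lower over the mean of days, Grb10 had the largest difference, followed by Kcnh3 (-0.69 ± 0.18), a potassium channel, Emb (-0.65), Gja1 (-0.60), a gap junction protein, Gap43 (-0.54), a protein of growing axons, and 2810474O19Rik (-0.52). Emb, Gap43 and 2810474O19Rik reached 10 RPM in at least 3 libraries in control alone, so their differences are a description. Kcnh3 had 28.4, 24.8 and 21.0 RPM in control and 5.67, 5.06 and 9.89 RPM in Dnmt1 KO on day 6, with groups apart, and fell by 1.85 ± 0.43 (adjusted p = 0.0011). Prosapip1 had 329.5, 424 and 367 RPM in control and 164, 161 and 153 RPM in Dnmt1 KO on day 3 and fell (-1.20 ± 0.17 log2, adjusted p = 6.9e-06). By day 25 Prosapip1 had dropped to 12.5, 13.4 and 13.49 RPM in control against 25.7, 15.4 and 26.5 RPM in Dnmt1 KO and was called higher (0.80 ± 0.17).

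Several gene bodies switched direction between early and late days. Elovl6, an enzyme that elongates fatty acids, had 61.9, 55.7 and 52.7 RPM in control and 183, 179 and 152 RPM in Dnmt1 KO on day 6, a rise of 1.47 ± 0.15 (adjusted p = 1.4e-10). On day 25 it had 685, 610.3 and 698 RPM in control and 283, 249.7 and 271 RPM in Dnmt1 KO, so Elovl6 fell (-1.20 ± 0.15, adjusted p = 1.9e-08). The noncoding RNA Malat1 had 91.4, 102 and 92.0 RPM in control and 49.8, 46.1 and 41.7 RPM in Dnmt1 KO on day 25 and fell by 0.93 ± 0.12 (adjusted p = 2.8e-08). In each of these comparisons the groups did not overlap.

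On day 1, before the calls became numerous, the clearest rises were in Bai2, Lin7c and 2610528E23Rik. Bai2, an adhesion receptor of neurons, had 33.9, 33.2 and 10.3 RPM in control and 111, 69.1 and 54.3 RPM in Dnmt1 KO, a rise of 1.58 ± 0.28 (adjusted p = 0.0004). Lin7c, a scaffold protein, had 53.3, 42.9 and 29.9 RPM in control and 106, 82.8 and 78.7 RPM in Dnmt1 KO, a rise of 1.00 ± 0.17 (adjusted p = 0.00018). Lancl2 had 214, 211 and 210.2 RPM in control and 105, 124 and 148 RPM in Dnmt1 KO and fell by 0.85 ± 0.15 (adjusted p = 0.00032). The groups did not overlap in any of these, and none of Bai2, Lin7c and Lancl2 kept the difference on day 11, when the effects had changed by -1.63, -1.20 and 0.96 respectively against day 1.

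Gene lists chosen for the tissue are read beside the share of all features called over the mean of days, 26.7%, with 16.6% higher and 10.1% lower. Of 15 pluripotency genes in the set, 3 rose (Nanog, Sox2 and Lefty2) and 1 fell (Utf1), while 6 of the 15 were higher on day 6, where 13.7% of all features were. Sox2 had 9.46, 10.7 and 9.07 RPM in control and 19.3, 31.9 and 21.5 RPM in Dnmt1 KO on day 6, a rise of 1.11 ± 0.24 (adjusted p = 0.00045). Among 9 RNA interference genes 1 was called, Eif2c1 (Ago1), with 6.53, 8.997 and 6.72 RPM in control and 17.0, 14.7 and 15.9 RPM in Dnmt1 KO on day 9 (1.12 ± 0.26, adjusted p = 0.001). Of 7 DNA methylation genes Dnmt3l was called (0.25 ± 0.09, adjusted p = 0.026).

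Among the rest, the only germline gene in the set out of 50 listed that methylation keeps silent was Tex15. It had 4.11, 3.70 and 4.54 RPM in control and 7.11, 7.92 and 7.05 RPM in Dnmt1 KO on day 9 and differed by 0.82 ± 0.26, a description, since it reached 10 RPM in at least 3 libraries in Dnmt1 KO alone. Against the same 26.7% of all features, none of 10 chromatin silencing genes and none of 11 ribosomal protein genes was called on the mean of days, and 1 of 21 abundant housekeeping genes was, in the lower direction. Of 2 differentiation genes 1 was called (Lama1, 0.51 ± 0.10, adjusted p = 5.5e-05). Of 6 genes known as sources of endo-siRNAs in oocytes, Rangap1 and Ppp4r1 were in the set, and their mean differences were 0.18 ± 0.11 (adjusted p = 0.25) and 0.52 ± 0.22 (adjusted p = 0.081).

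Higher calls were split by length as follows, with a background of 12.3% of all features higher on day 9 and 16.6% over the mean of days. The 347 longest (94.6 to 1139 kb) had 43 higher (12.4%) and 2 lower on day 9 and 60 higher (17.3%) and 8 lower over the mean of days, both near the background. The 347 shortest (1.004 to 20.9 kb) had 20 higher (5.76%) and 9 lower on day 9 and 37 higher (10.7%) and 20 lower over the mean of days. Across the 1386, Spearman's rho of length with the day 9 difference was 0.19 and with the mean difference 0.14. These are descriptions across genes of the same libraries, many of which share reads and depth.

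Whether small RNAs of these gene bodies were bound by AGO2 was asked by comparing their share of reads in the pull-down with their share in day 9 total RNA. The gene bodies held 3.99 to 4.33% of reads in total RNA of day 9 controls and 4.25 to 4.43% in Dnmt1 KO. In the AGO2 pull-downs they held 0.157 to 0.268% of reads in control and 0.327 to 0.420% in Dnmt1 KO. Without the few gene bodies of highest median RPM, Acsl6 among them, these shares were 0.149 to 0.263% and 0.224 to 0.372%, which overlap. The median level over gene bodies was 8.23 RPM in day 9 control and 8.44 RPM in Dnmt1 KO, and 0.294 and 0.483 RPM in the AGO2 pull-downs of the same genotypes.

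Gene body by gene body, the depletion was near complete. In control, 1359 of the 1386 were lower in AGO2 than in total RNA and 9 higher (background 93.7% of features called, 87.9% lower and 5.85% higher). In Dnmt1 KO, 1347 were lower and 15 higher (background 92.8%, 84.7% lower and 8.17% higher). The median log2 ratio of AGO2 to total was -2.74 in control and -2.66 in Dnmt1 KO, near the -2.80 and -2.67 over all features tested. For 291 miRNA features it was -0.07 and 0.56, and for 260 features of snoRNAs, snRNAs and rRNA -6.52 and -6.48. On the log2(RPM + 1) scale a low row cannot fall as far as an abundant one, so these medians do not rank the classes by depletion.

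Most gene bodies had low levels in the pull-downs. A total of 1052 (75.9%) had a mean under 1 RPM in both AGO2 groups, 143 had at most 3 reads in each AGO2 library, and 7 had no read in any. Only 20 reached a mean of 10 RPM in control pull-downs and 26 in Dnmt1 KO. In total 27 did so in either genotype. The median RPM of a gene body in the time course had a Spearman's rho of -0.72 with its AGO2 to total ratio in control, a description across genes in which abundance in total RNA enters both measures. With TMM scaling between the 2 kinds of library, which assumes that most features do not change, the counts were 57 higher and 1100 lower in control and 54 and 1111 in Dnmt1 KO.

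**Figure D3:**
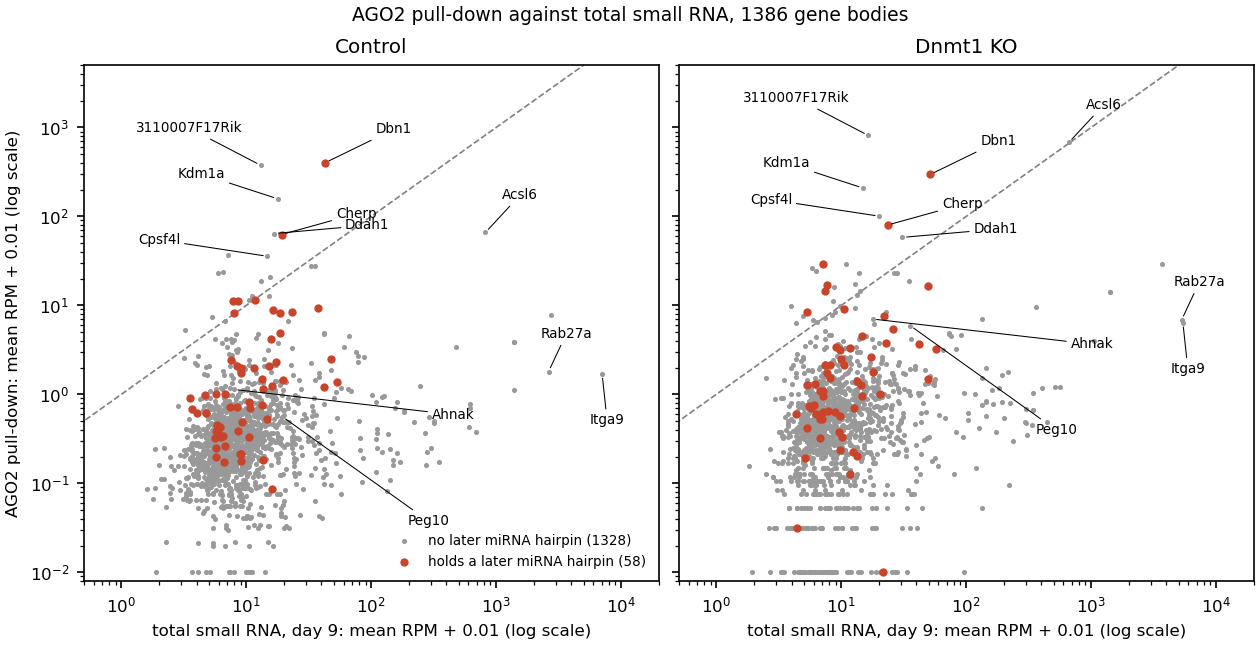
Mean RPM in AGO2 pull-downs (vertical axis, 4 libraries per genotype) against mean RPM in day 9 total small RNA (horizontal axis, 3 libraries per genotype) for the 1386 gene bodies, both as RPM + 0.01 on log scales, with the dashed line at equality. Red points are the 58 hosts of a later miRNA hairpin. A few gene bodies, led by 3110007F17Rik and Dbn1, lie above the line, while Rab27a and Itga9 lie far below it.

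The plot of AGO2 against total levels sets apart a small group above equality. The 8 gene bodies of at least 10 RPM in AGO2 with the highest ratio were 3110007F17Rik, Kdm1a, Dbn1, Ank3, Cpsf4l, Cep192, Cherp and Ddah1, and all 8 were called above total RNA in both genotypes. The most abundant in total RNA were the opposite. Itga9 had 2.85, 1.22, 1.26 and 1.38 RPM in control pull-downs and 11.28, 9.65, 2.96 and 1.56 RPM in Dnmt1 KO. Rab27a had 2.07, 1.48, 1.16 and 2.48 RPM and 13.9, 7.08, 2.67 and 3.91 RPM. Both were thus far lower in AGO2 than in total RNA.

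In Dnmt1 KO the highest mean AGO2 level belonged to 3110007F17Rik, a protein-coding gene on the X chromosome (chrX:120217104-120302404) with no small RNA gene in either annotation. In control Dbn1 had the higher mean, at 403 RPM against 376 RPM. The row of 3110007F17Rik had 108, 89.9, 681 and 623 RPM in control pull-downs and 276, 298, 1322 and 1365 RPM in Dnmt1 KO. In day 9 total RNA it had only 14.8, 11.6 and 12.7 RPM in control and 15.2, 16.7 and 17.3 RPM in Dnmt1 KO. The ratio of AGO2 to total was 4.19 ± 0.71 log2 in control (adjusted p = 3.3e-05) and 5.16 ± 0.71 in Dnmt1 KO (adjusted p = 3.3e-06). Within each genotype replicates 3 and 4 stood far above replicates 1 and 2, by 6.60 times in control and 4.68 times in Dnmt1 KO, and the genotypes differed by 0.59 ± 0.89 (adjusted p = 0.78).

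Dbn1 (drebrin, an actin-binding protein, chr13:55574787-55589529) hosts Mir6944 as a whole intron. It had 229.5, 205, 599 and 577 RPM in control pull-downs and 175, 179.6, 413 and 418 RPM in Dnmt1 KO. In day 9 total RNA it had 41.8, 46.0 and 41.1 RPM in control and 58.8, 47.5 and 48.4 RPM in Dnmt1 KO. Every pull-down was above every total library. The ratio was 3.03 ± 0.40 in control (adjusted p = 2.3e-06) and 2.38 ± 0.40 in Dnmt1 KO (adjusted p = 3.5e-05). The row does not say which of its reads came from the hairpin.

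Cherp, a regulator of calcium release and splicing (chr8:74984388-74999132), hosts Mir7068 in the same way. It had 28.1, 23.4, 107 and 91.6 RPM in control pull-downs and 40.8, 56.0, 103 and 120.1 RPM in Dnmt1 KO, and its ratio was 1.36 ± 0.48 (adjusted p = 0.014) and 1.60 ± 0.48 (adjusted p = 0.005). The third host, Hspg2 (perlecan, a basement membrane proteoglycan), had 7.67, 10.8, 9.27 and 9.48 RPM in control pull-downs and 10.4, 17.4, 19.9 and 18.8 RPM in Dnmt1 KO. In day 9 total RNA Hspg2 was higher, at 39.4, 41.3 and 32.3 RPM in control and 48.0, 50.8 and 49.4 RPM in Dnmt1 KO, and its ratio was -1.91 ± 0.22 and -1.55 ± 0.22. Of the 3 whole-intron hosts, Dbn1 and Cherp were thus above total RNA in AGO2 and Hspg2 below it.

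Hosts of later miRNAs were more often seen in AGO2 than the other gene bodies, as a description of counts. A mean of at least 10 RPM in AGO2 of either genotype was reached by 7 of 58 hosts (12.1%) and by 20 of 1328 others (1.51%). In Dnmt1 KO, 5 of 58 hosts (8.62%) and 10 of 1328 others (0.753%) were called above total RNA, and the hosts' share was near the background of 8.17% of all features. Glul, one of those 10 others, shares the place of Mir8114. Besides Dbn1, Cherp and Hspg2, the 7 hosts were Gse1, Gcn1l1, Gap43 and 5830403L16Rik. Gse1 had 11.6, 9.65, 11.4 and 12.7 RPM in control pull-downs and 19.96, 29.0, 6.23 and 11.98 RPM in Dnmt1 KO. The 20 hosts of tRNA genes had a median ratio of -3.74 in Dnmt1 KO and none reached 10 RPM in AGO2.

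On the time course the miRNA hosts did not stand out. On day 9, 3 of the 58 were called higher and 1 lower, and of the 1328 others 100 were higher and 12 lower. The background was 12.3% of all features higher and 6.12% lower, and hosts and others both lay below it. The median day 9 difference was 0.17 log2 in the hosts and 0.15 in the others. In AGO2, 0 of the 58 hosts were called higher in Dnmt1 KO and 1 lower by limma at an adjusted p of 0.05. Of all features 2.87% were called in each direction there. With library totals the host 5830403L16Rik, which shares reads with Glul, was called higher (1.27 ± 0.23, adjusted p = 0.010).

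Several gene bodies above total RNA in AGO2 held no small RNA gene in RefSeq, among them Kdm1a, Cpsf4l and Ddah1. Kdm1a (the histone demethylase LSD1, overlapped by Luzp1) had 106, 185, 191 and 149 RPM in control pull-downs and 94.6, 54.1, 469.6 and 216 RPM in Dnmt1 KO. In day 9 total RNA Kdm1a had 16.4, 18.7 and 18.4 RPM in control and 15.8, 13.1 and 15.7 RPM in Dnmt1 KO, and the ratio was 3.04 ± 0.51 and 3.27 ± 0.51. Cpsf4l (overlapped by D11Wsu47e) had 46.5, 47.7, 24.6 and 23.8 RPM in control pull-downs and 132, 129, 71.1 and 70.1 RPM in Dnmt1 KO. Its groups did not overlap, yet the difference between genotypes was 0.79 ± 0.32 and did not pass (adjusted p = 0.21), though it did with library totals (adjusted p = 0.039).

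Ddah1, an enzyme that degrades methylated arginines (chr3:145421639-145557241), was the one among these 8 that also rose in total RNA. It had 63.3, 51.7, 68.8 and 73.2 RPM in control pull-downs and 52.9, 77.9, 46.8 and 54.8 RPM in Dnmt1 KO, with overlapping groups. On day 9 its total level was 19.6, 18.2 and 12.4 RPM in control and 32.8, 28.0 and 31.9 RPM in Dnmt1 KO, a rise of 0.99 ± 0.21 (adjusted p = 0.00056). Ddah1 was above total RNA in AGO2 by 1.89 ± 0.22 in control and 0.87 ± 0.22 in Dnmt1 KO, and between AGO2 genotypes it differed by -0.85 ± 0.24 (adjusted p = 0.08).

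The libraries labelled none were very shallow, with 57155 reads in control and 9830 in Dnmt1 KO. They were rich in the 12 ESC miRNA rows, at 206404 and 105290 RPM, the first within the range of 194871 to 270691 RPM of the control AGO2 pull-downs. In the control none library 3110007F17Rik had 7 reads, or 122 RPM (95% exact binomial interval 49.2 to 252), Dbn1 9 reads or 157 RPM (72.0 to 299), Kdm1a 6 reads or 105 RPM (38.5 to 228) and Cherp 0 reads (up to 64.5 RPM). These intervals cover counting error only. Cpsf4l had 4 reads (19.07 to 179 RPM) and Ddah1 and Ank3 3 reads each (10.8 to 153 RPM). All 4 control pull-downs of Kdm1a, Cpsf4l, Ddah1 and Ank3 lay inside these intervals, and so did replicates 1 and 2 of 3110007F17Rik, Dbn1 and Cherp. The Dnmt1 KO none library held 0 to 5 reads of each, and whether these gene bodies exceed the level of the none libraries was not tested.

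To ask whether AGO2 held more small RNA of these gene bodies after Dnmt1 loss, the 4 pull-downs of each genotype were compared. Of the 1386, 22 were called, 4 higher and 18 lower in Dnmt1 KO, where 5.73% of all features were called, 2.87% in each direction. Of the 958 gene bodies at the level in both genotypes of the time course, 4 were higher and 13 lower. Of the 18 lower, 13 had a control mean under 1 RPM, a level of about 1 read in the shallowest Dnmt1 KO pull-down. The split rested on the scaling. With library totals 16 were higher and 10 lower, since the TMM factors differed by 0.70 log2 between genotypes, and the median difference of the 291 miRNA features was 0.45 with library totals and -0.22 with TMM. Marker miRNAs of other cells also differed between the pull-downs. The 3 blood rows summed to 1105 to 1474 RPM in control and 3152 to 6178 RPM in Dnmt1 KO, without overlap. The 8 fibroblast rows summed to 6894 to 17085 RPM in control and 15370 to 31846 RPM in Dnmt1 KO, with overlap. The part of such cells in the AGO2 results was not tested.

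The 4 gene bodies called higher were Acsl6, Peg10, Ahnak and Dlgap1. Acsl6, an enzyme that activates long-chain fatty acids (chr11:54117300-54178258), had 47.1, 126, 37.2 and 53.7 RPM in control pull-downs and 873, 1267, 438 and 141 RPM in Dnmt1 KO. The groups did not overlap, and the rise was 2.40 ± 0.58 log2 (adjusted p = 0.042). In day 9 total RNA it had 844, 828 and 790.4 RPM in control and 703, 693 and 596 RPM in Dnmt1 KO, a difference of -0.19 ± 0.21 (adjusted p = 0.62). Acsl6 was thus below total RNA in control pull-downs (-3.78 ± 0.56) and within error of it in Dnmt1 KO (-0.37 ± 0.56, adjusted p = 0.53). Its call was lost in 6 of 8 fits that left out 1 pull-down (all but Dnmt1 KO replicate 4 and control replicate 2, adjusted p up to 0.131).

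The reads behind the Acsl6 value did not follow depth. The row held 1026, 1454, 766 and 1366 reads in control pull-downs and 1006, 1968, 1477 and 1628 reads in Dnmt1 KO, while the libraries ranged from 1152390 to 25423038 reads. In the none libraries it was the highest of all gene bodies, with 1387 of 57155 reads in control (2.43%, 95% exact interval 2.30 to 2.56%) and 1543 of 9830 in Dnmt1 KO (15.7%, 14.98 to 16.4%). The number of Acsl6 reads was thus alike in the AGO2 and none libraries, and the higher RPM in Dnmt1 KO moved with the lower depth of those libraries.

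Peg10 had 0.413, 0.435, 0.776 and 0.590 RPM in control pull-downs and 10.4, 7.72, 2.37 and 3.12 RPM in Dnmt1 KO. Ahnak had 0.827, 1.74, 0.679 and 1.26 RPM in control and 10.4, 5.79, 6.23 and 5.64 RPM in Dnmt1 KO. Dlgap1, a scaffold protein of synapses, had 0.275, 0, 0.388 and 0.433 RPM in control and 4.34, 3.22, 1.78 and 1.22 RPM in Dnmt1 KO. In none of these did the groups overlap. The rises were 1.55 ± 0.31 log2 for Peg10 (adjusted p = 0.016), 1.41 ± 0.24 for Ahnak (adjusted p = 0.0065) and 1.11 ± 0.25 for Dlgap1 (adjusted p = 0.025).

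These 3 rises rested on few reads. Peg10 had 5 to 16 reads per control pull-down and 8 to 36 per Dnmt1 KO pull-down, Ahnak 14 to 32 and 9 to 65, and Dlgap1 0 to 11 and 5 to 14. The Dnmt1 KO pull-downs held 1152390, 1553877, 3373294 and 11520133 reads in all. In that order Peg10 had 12, 12, 8 and 36 reads, Dlgap1 5, 5, 6 and 14, and Ahnak 12, 9, 21 and 65. The RPM of Peg10 and Dlgap1 was thus highest in replicates 1 and 2, the shallowest, and that of Ahnak in replicate 1. The part of depth in these rises was not tested. The rise in Peg10 did not pass without control replicate 1, 2 or 4 (adjusted p up to 0.063) and that in Dlgap1 without Dnmt1 KO replicate 2 or any single control replicate (adjusted p up to 0.086). The rise in Ahnak passed without any 1 library (adjusted p up to 0.033). In the none libraries Ahnak had 0 reads and Peg10 3 and 0.

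**Figure D4:**
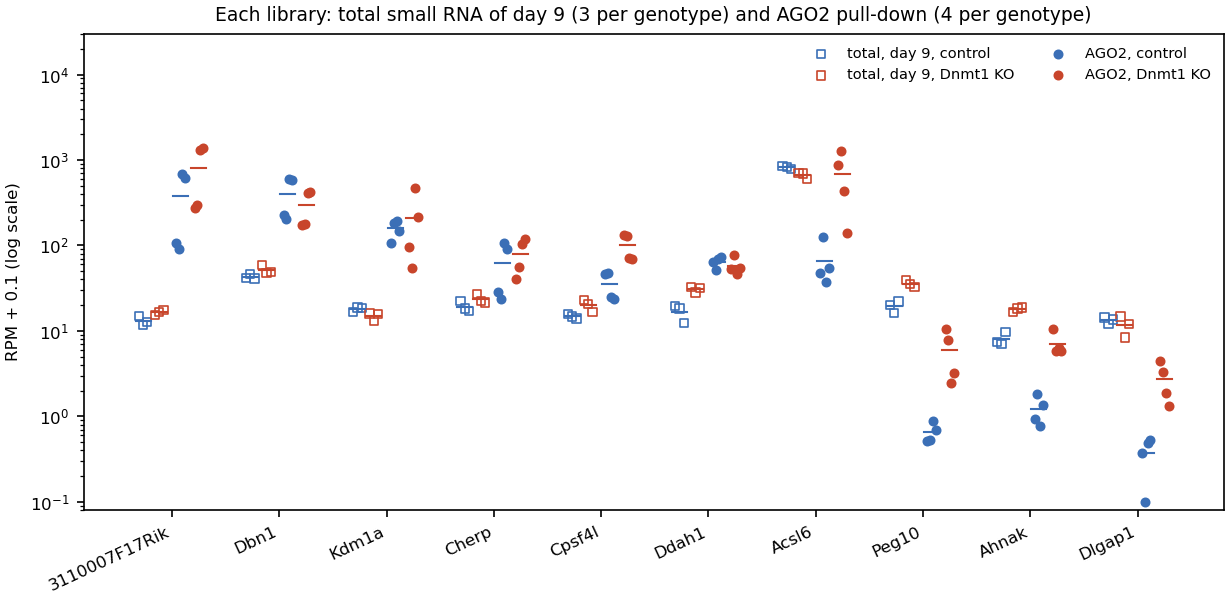
RPM + 0.1 in each library (vertical axis, log scale) for 10 gene bodies (horizontal axis). Open squares are day 9 total small RNA (3 libraries per genotype), filled circles are AGO2 pull-downs (4 per genotype), blue is control, red is Dnmt1 KO and bars are means. 3110007F17Rik, Dbn1 and Kdm1a lie above their total level in AGO2, and Peg10, Ahnak and Dlgap1 lie below it in both genotypes.

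The values by library show that replicates 1 and 2 stood apart from replicates 3 and 4 in both genotypes for several gene bodies. Replicates 3 and 4 were above replicates 1 and 2 in 3110007F17Rik, Dbn1 and Cherp, by 2.31 to 6.60 times, and below them in Cpsf4l, at 0.513 times in control and 0.540 times in Dnmt1 KO. With a term for this split, Acsl6 differed by 2.40 ± 0.43 between genotypes (adjusted p = 0.0095), Dbn1 by -1.09 (adjusted p = 0.0066), Ank3 by -1.21 (adjusted p = 0.014) and Cpsf4l by 0.79 (adjusted p = 0.044). Without the term the adjusted p by limma was 0.30 for Dbn1, 0.22 for Ank3 and 0.21 for Cpsf4l. The groups of Dbn1 and of Ank3 overlapped. Mean RPM in control and Dnmt1 KO was 403 and 296 for Dbn1 and 37.3 and 26.4 for Ank3. These estimates carry the 0.70 log2 difference of the TMM factors between genotypes. The split was seen in the data and is not in the labels, so the values with the term are a description.

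Among gene bodies called lower in AGO2 of Dnmt1 KO, 5 had a control mean of 1 RPM or more. Rrm1, a subunit of ribonucleotide reductase, had 5.28, 4.96, 10.2 and 8.93 RPM in control and 0.868, 2.57, 2.96 and 4.08 RPM in Dnmt1 KO and fell by 1.75 ± 0.38 (adjusted p = 0.025). The row 4933439F18Rik had 3.63, 2.96, 2.47 and 3.46 RPM in control and 0.868, 0.644, 0.296 and 1.04 RPM in Dnmt1 KO and fell by 1.68 ± 0.21 (adjusted p = 0.0007). Apoe, the lipid carrier, had 1.29, 1.22, 1.60 and 2.01 RPM in control and 0, 0, 0.296 and 0.521 RPM in Dnmt1 KO. Calr and Npm1, abundant chaperones, fell by 1.03 and 1.02. With library totals the falls in Rrm1 (adjusted p = 0.098), Calr (0.171) and Npm1 (0.21) did not pass.

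The pattern of an endo-siRNA source meant higher calls in Dnmt1 KO in AGO2 and also on day 9 or over the mean of days. With TMM scaling it was met by 2 of the 1386, Peg10 and Ahnak. How many of all features met it was not counted. In AGO2 alone 4 of the 1386 were higher, against 2.87% of all features. With the replicate block Peg10 no longer passed in AGO2. With library totals Peg3, which rose on day 9 under TMM, was also higher in AGO2 (1.07 ± 0.24, adjusted p = 0.037 by limma). Neither Peg10 nor Ahnak was enriched in AGO2. In Dnmt1 KO the ratio of AGO2 to total was -2.58 ± 0.33 for Peg10 (adjusted p = 1.3e-06) and -1.26 ± 0.22 for Ahnak (adjusted p = 4.7e-05), with every pull-down below every total library. The change of that ratio between genotypes was 1.13 ± 0.46 for Peg10 (adjusted p = 0.17) and 0.82 ± 0.31 for Ahnak (adjusted p = 0.14) and did not pass. Over the set, 27 gene bodies had a higher and 27 a lower ratio in Dnmt1 KO (background 6.08%, 4.38% higher and 1.70% lower), with Acsl6 among the higher (3.41 ± 0.79, adjusted p = 0.015). With TMM scaling the split was 4 higher to 13 lower.

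Klhl13, with the largest difference over the mean of days, had little in AGO2. It had 0, 0.261, 0 and 0.118 RPM in control pull-downs and 0, 0.644, 0.296 and 0.521 RPM in Dnmt1 KO, a difference of 0.21 ± 0.15 (adjusted p = 0.51). Grb10, which fell in total RNA, also fell in AGO2, from 0.597, 0.609, 0.825 and 0.511 RPM to 0, 0, 0 and 0.434 RPM (-0.73 ± 0.18, adjusted p = 0.044). These values stood for 7 to 17 reads per control pull-down and 0 to 5 per Dnmt1 KO pull-down, and with library totals the fall did not pass (adjusted p = 0.098).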

How the data were processed

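Titles gave the groups of 83 libraries; genotype tags that contradict the titles were not used. According to the labels, libraries were made with the Illumina small RNA kit. The authors trimmed reads with Trim Galore 0.3.5, aligned them to NCBIM37 with Bowtie2 2.2.9, kept 20 to 24 nt and quantified features in SeqMonk as RPKM, the unit of the deposited table, and each value was converted to RPM (RPKM × length in kb) and to whole reads (all within 5% of a step). Members, lists and tests were chosen with earlier results of these data known. Features with at least 10 RPM in 3 of 36 libraries (2582) were fitted with limma 3.58.1 (R 4.3.3, trend, two-sided) on log2(RPM + 1) after TMM scaling (AGO2 against total: library totals), with Benjamini-Hochberg adjustment. The AGO2 comparison has 4 against 4 libraries, each day 3 against 3. Named gene bodies are those highest by RPM or RPKM, those with the largest or clearest differences, the highest AGO2 ratios, list members and later miRNA hosts; Ptprg, Lama1, Utf1, Nanog and Lefty2 were named after their values were seen. A gene body that the rule names is not reported here. Replicate numbers did not pair the samples. Libraries with an R1 suffix, mostly of even read counts, were only an alternative. The fit was tested on simulated data.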

Additional observations from a re-analysis of the deposited data

Results flagged for a closer look

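In the AGO2 pull-downs of Dnmt1 KO, the highest library of Ahnak (replicate 1, 10.4 RPM) stood apart from the other 3, which lay between 5.64 and 6.23 RPM. Among groups of 4, chance alone sets a library apart in this way in about 1 of 20.

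For several of the gene bodies named in the text, the effect of Dnmt1 loss on day 11 differed from that on day 1 by the interaction term of the same fit. In all, 24 of the 1386 had a larger and 19 a smaller effect on day 11 (background 9.02%, 6.04% higher and 2.98% lower), and the split was 15 to 37 with library totals and 28 to 14 with median-ratio factors. The change was upward in Klhl13 (2.64 log2), Gm17561 (2.45), Ddah1 (1.33), Rab27a (1.14), Npffr1 (1.08), Gm10369 (1.01), Ahnak (1.00), Lancl2 (0.96) and Ptprg (0.62). It was downward in Grb10 (-1.82), Bai2 (-1.63), Cobl (-1.27), Lin7c (-1.20), Gm13589 (-1.20), Malat1 (-0.89) and 4930557F10Rik (-0.70). In Bai2 and Lin7c a rise on day 1 was not seen on day 11, and in Rab27a a fall on day 1 became a rise. Klhl13 and Gm17561 passed the level in Dnmt1 KO libraries alone and Cobl in control alone, so their values are a description.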

How the results depend on the processing

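The number of gene bodies called moved by over 1.5 times mainly with the features fitted and with single libraries, and the cause was not tested. Without the filter on low values, which adds features to the adjustment, 9 were called on day 1, 7 on day 3, 74 on day 6, 51 on day 9, 23 on day 11, 203 on day 25, 107 over the mean of days, 12 in the day 11 to day 1 change and 42 in AGO2. In the R1-suffixed libraries the counts were 42, 14, 66, 17 and 11 on days 1 to 11 and 28 in the change. Fitting a day alone gave 298 on day 9, 127 on day 11 and 88 on day 25. Leaving out 1 library gave 6 to 22 on day 1, 11 to 36 on day 3, 111 to 157 on day 6, 60 to 96 on day 9, 26 to 41 on day 11, 321 to 383 on day 25, 176 to 229 over the mean of days, 27 to 44 in the change and 13 to 55 in AGO2.

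The libraries that moved a count by over 1.5 times were, on day 1, Dnmt1 KO replicate 1 (10 without it), replicates 2 and 3 (13 each) and control replicate 3 (6). On day 3 they were Dnmt1 KO replicate 1 (11) and control replicates 1, 2 and 3 (13, 14 and 17). On day 6 they were Dnmt1 KO replicates 1 and 2 (120 and 111) and control replicate 2 (121). On day 9 they were Dnmt1 KO replicates 1 and 3 (60 and 69) and control replicate 3 (65), and on day 11 Dnmt1 KO replicate 1 (26, and 27 in the change). In AGO2 they were Dnmt1 KO replicate 4 (55) and control replicates 1 and 3 (14 and 13).

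Among gene bodies of at least 10 RPM in 3 pull-downs, 16 were called against total RNA in control, 17 in Dnmt1 KO and 7 between AGO2 genotypes. In AGO2, 35 were called with a term for replicates 1 and 2 against 3 and 4, and 1 with those pairs averaged. Replicates 1 and 2 alone gave 54 and replicates 3 and 4 alone gave 1, both chosen after seeing the data. Replicate numbers did not pair the samples, since the deviations of same-numbered libraries correlated at -0.066 to 0.047 in the time course and 0.055 to 0.119 in AGO2. With the replicate block 5 were called in AGO2, where Peg10 (adjusted p = 0.059) and Dlgap1 (adjusted p = 0.087) no longer passed. The other counts stayed within 1.5 times under the block.

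No named value changed sign while called. Under library totals Rrm1, Calr, Npm1 and Grb10 in AGO2 and the day 1 value of Gm10369 no longer passed. Over days 1 to 11 alone, chosen after seeing the data, 2810474O19Rik no longer passed (-0.23, adjusted p = 0.13). In the shallowest Dnmt1 KO pull-down 1 read was worth 0.868 RPM, which limits the precision of its low values.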

Other observations

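In the PGC libraries, 1 per sex and stage and labelled as ESC, the gene bodies held 13.03% of reads at E13.5 F, 8.15% at E13.5 M, 4.76% at E14.5 F and 5.08% at E14.5 M. Acsl6 was the highest of the 1386 in each, with 52066 RPM at E13.5 F, 30937 RPM at E13.5 M, 8238 RPM at E14.5 F and 9506 RPM at E14.5 M. In the R1-suffixed PGC libraries Acsl6 took 66.1% of reads at E13.5 F and 91.5% at E13.5 M, against 28638 RPM at E14.5 M. With 1 library per group, these values have no replicate check.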
